A study of Mus musculus with 108 samples.

Results

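RNA of neurons and glia was measured in libraries made from myeloid cells that had been sorted out of mouse brain or blood. The 29 genes followed here were chosen by name, as markers of cells that the sort was not meant to take: 9 of neurons (Snap25, Syt1, Grin2b, Gria2, Rbfox3, Gad1, Slc17a7, Stmn2 and Meg3), 11 of astrocytes (Gfap, Aqp4, Slc1a2, Slc1a3, Aldoc, Gja1, Aldh1l1, Agt, Itih3, Sox9 and Clu) and 9 of oligodendrocytes (Mbp, Mog, Mobp, Mag, Cnp, Mal, Olig1, Olig2 and Enpp2). All 29 were found among the 49585 genes of the deposited count table, and their values were taken in each of the 108 libraries of 28 groups. Low-count filtering kept 29 of them for tests within microglia, 20 within bone marrow-derived macrophages, 16 within inflammatory monocytes and 25 within granulocytes. The rule that names them uses no measured value, but the genes were chosen with earlier results of these data known.

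The series follows myeloid cells of brain metastases through tumour growth and whole-brain radiotherapy. Every animal was a Balb/C athymic nude mouse (CAnN.Cg-Foxn1nu/Crl), a strain that lacks a thymus and so most T cells. Flow cytometry gave 4 populations from tumour-bearing brains: microglia, the resident macrophages of the brain, bone marrow-derived macrophages (BMDM), which enter from the blood, inflammatory monocytes and granulocytes. Without irradiation each was taken at the tumour stages called small (5 libraries of microglia and of BMDM, 4 of monocytes and of granulocytes) and large (5 of each). Irradiated groups carry no stage and were 5x2 Gy with cells taken on day 3 (4 libraries per population), day 5 (4) or day 10 (3), and 1x10 Gy on day 3 (3). The event from which the days count is not given in the labels. Tumour-free libraries came from microglia (4, called control microglia here) and from blood monocytes (4). A further 3 and 3 microglia libraries without tumour have 5x2 and day 3 or day 5 in their titles. The radiotherapy field of these last 6 libraries says none, so they are called titled 5x2 controls and were not merged with the control microglia. No label states whether each library is its own animal, and p-values here therefore cover only the spread seen among these libraries.

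Neurons signal through vesicle proteins and glutamate receptors, astrocytes take up glutamate and couple to each other through gap junctions, and oligodendrocytes wrap axons in myelin. Microglia and blood-derived phagocytes express few of these genes and are known to engulf myelin, synapses and dying cells. A dissociated brain also sheds free RNA, and a sorted fraction can hold other cells. In libraries of bulk RNA, fewer cells of a type and less RNA per cell cannot be told apart, nor can RNA inside a phagocyte be told from RNA beside it.

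Levels are CPM, read counts scaled to the size of each library, with TMM factors over all 108 libraries. Of the sorted-cell markers, P2ry12 followed the labels among microglia, BMDM and tumour monocytes. P2ry12, a receptor of microglia, had a median of 3062 CPM in tumour-free and 1692 CPM in tumour microglia, against 230 CPM in BMDM and 75.9 CPM in tumour monocytes. Ccr2, the chemokine receptor of monocytes, had a median of 2797 CPM in tumour monocytes, and S100a8, a protein stored in the cytoplasm of granulocytes, had one of 2484 CPM in granulocytes. Both are given for 1 population each, and blood monocytes are not covered by these values. In blood monocytes 1 to 4, red cell genes summed to 7493, 3151, 5316 and 1132 CPM. Monocyte and macrophage genes summed to 1970, 1027, 2837 and 8525 CPM there, less than the red cell genes in libraries 1 to 3. Total counts ran from 985423 to 18642747 per library. By depth, genes detected or abundant genes at 0, 12 libraries were of doubtful quality, among them control microglia 2 and 3, small-stage microglia 1 and 4, and blood monocytes 1 to 3, and results that rest on them are given with and without them.

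The summed level of each marker set had a higher median in tumour-free microglia than in any of the tumour populations. The 11 astrocyte genes together ran from 648 to 4570 CPM with a median of 2128 in the 10 tumour-free microglia libraries, and from 138 to 523 CPM with a median of 236 in the 24 tumour microglia libraries. These ranges did not overlap. In the other tumour populations the same sum had medians of 97.5 CPM in BMDM, 64.8 CPM in monocytes and 95.2 CPM in granulocytes, with highest libraries at 216, 200 and 739 CPM. The 9 neuron genes together had medians of 25.4 CPM in tumour-free and 5.52 CPM in tumour microglia, and of 3.27, 1.67 and 7.50 CPM in BMDM, monocytes and granulocytes. The 9 oligodendrocyte genes had medians of 1517 and 213 CPM in the 2 kinds of microglia, with a highest value of 11230 CPM. That highest value came mostly from Enpp2: without it the oligodendrocyte sum had medians of 496 CPM in tumour-free and 210 CPM in tumour microglia. With Enpp2, control microglia 1 to 4 had 437, 1280, 706.5 and 414 CPM. Large-stage granulocytes 1 to 5 had 335, 264, 270, 589 and 591 CPM. Blood monocytes 1 to 4 had 254, 151, 267 and 498 CPM. Some libraries of granulocytes and of cells taken from blood thus held more of this set than control microglia 1 and 4.

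**Figure D1:**
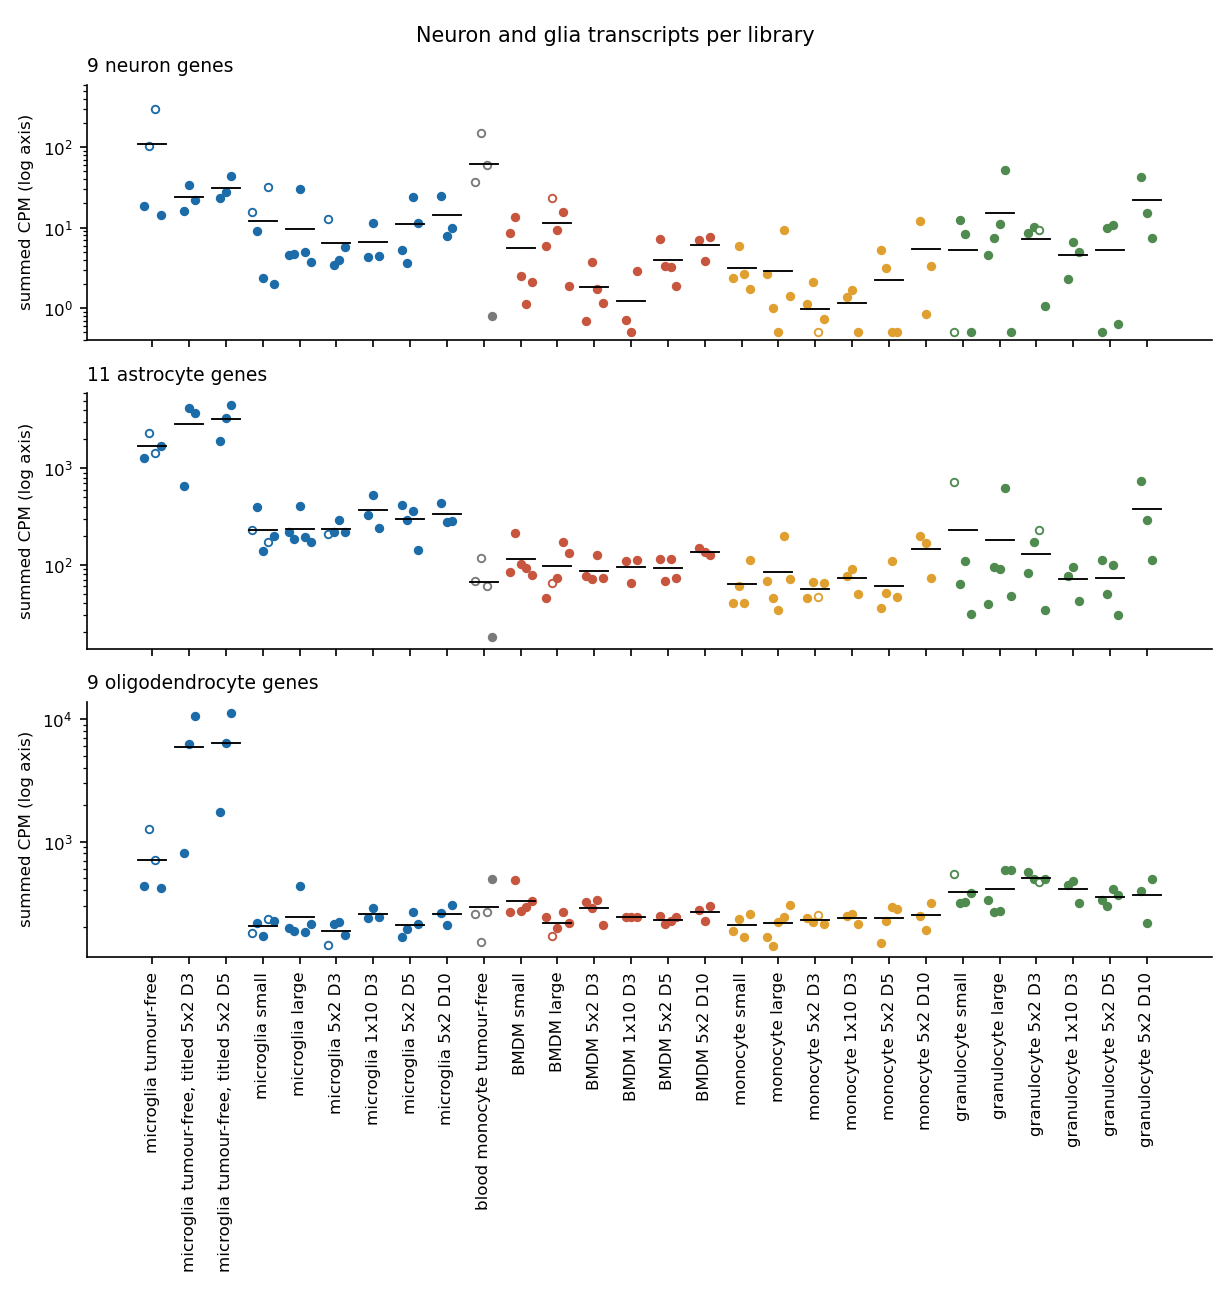
Summed TMM-scaled CPM (log axis) of the 9 neuron, 11 astrocyte and 9 oligodendrocyte genes in each of the 108 libraries, by group (x axis) and coloured by population. Bars are group means and open symbols the 12 libraries of doubtful quality. All 10 tumour-free microglia libraries hold at least 648 CPM of astrocyte genes, and no tumour microglia library holds over 523 CPM.

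Between genes, levels were compared per kilobase of exon. In control microglia the highest were Aldoc, a glycolytic enzyme of astrocytes, at 77.3 CPM per kb, Slc1a3, an astrocyte glutamate transporter, at 76.0 CPM per kb, and Clu, a secreted chaperone, at 67.9 CPM per kb. In small-stage microglia the order was led instead by Cnp, a myelin enzyme, at 24.6 CPM per kb, Slc1a3 at 19.8 CPM per kb and Mag, a myelin adhesion protein, at 11 CPM per kb. Mbp, the myelin basic protein, led in large-stage granulocytes at 43.0 CPM per kb and in blood monocytes at 22.5 CPM per kb. These are group means of levels, and neighbours in each order were not tested against each other.

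Microglia of small-stage tumours were compared with control microglia, in 1 fit over all microglia libraries. Of the 29 genes 14 were lower and 0 higher at an adjusted p under 0.05 (edgeR's quasi-likelihood test, Benjamini-Hochberg over all genes tested), where 15.4% of all 19754 genes were called, 7.82% lower and 7.55% higher. Astrocyte genes made up 9 of the 14, with Gria2 and Meg3 of neurons and Mbp, Mobp and Enpp2 of oligodendrocytes. The median log2 fold change was -4.74 over the 11 astrocyte genes, -2.33 over the 9 neuron genes and -1.93 over the 9 oligodendrocyte genes, against -0.03 over all genes. The large stage was set against the same 4 control libraries, so both comparisons share them. There 19 of the 29 were lower and 0 higher, where 31.9% of all genes were called, 20.2% lower and 11.7% higher. The medians were -4.53, -4.20 and -2.19 for the 3 sets, against -0.26 over all genes.

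The count depends on the control libraries. Without the 12 libraries of doubtful quality, control microglia 1 and 4 remain, and 8 genes were lower in the small and 12 in the large stage. Fits on only the libraries compared gave 9 and 12.

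Itih3, a heavy chain that binds hyaluronan in the extracellular matrix (ENSMUSG00000006522, GRCm38 chr14:30908572-30923760, minus strand), was steady among control libraries. Its levels in control microglia 1 to 4 were 103, 128, 117 and 117 CPM, and in small-stage microglia 1 to 5 they were 0.834, 2.08, 0, 0.935 and 0.160 CPM. Large-stage microglia 1 to 5 had 0.172, 0.167, 11.7, 0 and 0.316 CPM. All 4 control libraries lay far above all 10 tumour libraries, and large-stage microglia 3 stood apart from its group. Itih3 fell by 7.17 ± 1.27 on the log2 scale in the small stage (adjusted p = 0.000225) and by 5.68 ± 1.16 in the large stage (adjusted p = 0.000801). Without the doubtful libraries the fall was -7.21 ± 1.74 in the small stage (adjusted p = 0.0121).

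Agt, angiotensinogen, a secreted peptide precursor made by astrocytes (ENSMUSG00000031980, chr8:124556534-124569706, minus strand), had 11.2, 42.2, 65.8 and 16.0 CPM in control microglia 1 to 4. No small-stage library passed 0.208 CPM and no large-stage library 1.90 CPM, so the groups did not overlap. Agt fell by 8.14 ± 1.22 (adjusted p = 2.99e-05) and by 6.25 ± 1.07 (adjusted p = 0.000122) on the log2 scale.

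Gja1, connexin 43, the main gap junction protein of astrocytes (ENSMUSG00000050953, chr10:56377330-56402513, plus strand), had 91.1, 168, 84.3 and 110 CPM in control microglia 1 to 4. Its highest tumour value in these stages was 13.1 CPM in small-stage microglia 2. It fell by 5.00 ± 0.89 and 5.42 ± 0.91 on the log2 scale in the small and the large stage (adjusted p = 0.000252 and 9.9e-05). The second glutamate transporter, Slc1a2, fell from a mean of 196 CPM to 5.10 and 3.03 CPM, and Clu from 233 CPM to 8.96 and 9.25 CPM. Neither overlapped between control and tumour libraries of these stages.

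Slc1a3 (ENSMUSG00000005360, chr15:8634124-8710764, minus strand) fell least of the 9 called astrocyte genes. Control microglia 1 to 4 had 592, 628, 475 and 899 CPM, small-stage microglia 1 to 5 had 201, 250, 115, 121 and 157 CPM, and large-stage microglia 1 to 5 had 177, 164, 119, 168 and 130 CPM. The groups did not overlap, but the tumour libraries of these stages kept a level that no other astrocyte gene reached in them. The log2 fold changes were -1.94 ± 0.34 (adjusted p = 0.000185) and -2.13 ± 0.34 (adjusted p = 4.58e-05). As a share of the astrocyte sum, Slc1a3 made up 39.5 ± 11.8% in control microglia (SD, n = 4), 76.8 ± 9.97% in the small stage (SD, n = 5) and 71.9 ± 24.3% in the large stage (SD, n = 5). Without Slc1a3 the sum had a median of 1511 CPM in tumour-free and 49.5 CPM in all tumour microglia.

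The 2 other astrocyte genes were not called. Gfap, the intermediate filament of astrocytes that rises in reactive gliosis, had 22.6, 9.99, 2.74 and 4.75 CPM in control microglia, and 8.0, 22.8, 3.12, 12.2 and 12 CPM in the small stage. These ranges overlapped (log2 fold change 0.16 ± 0.77, adjusted p = 0.927). In the large stage 4 libraries lay between 7.40 and 22.9 CPM and large-stage microglia 3 at 97.3 CPM (1.43 ± 0.78, adjusted p = 0.157). Aldh1l1, a folate enzyme of astrocytes, had means of 26.3 CPM in control, 11.1 CPM in small-stage and 10.2 CPM in large-stage microglia, with adjusted p of 0.132 and 0.0522. Aqp4, the water channel of astrocyte end feet, and Sox9, a glial transcription factor, were called in both stages but overlapped between groups, since control microglia 3 had 1.37 CPM of each. In that library Itih3 and Agt stood at 117 and 65.8 CPM.

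**Figure D2:**
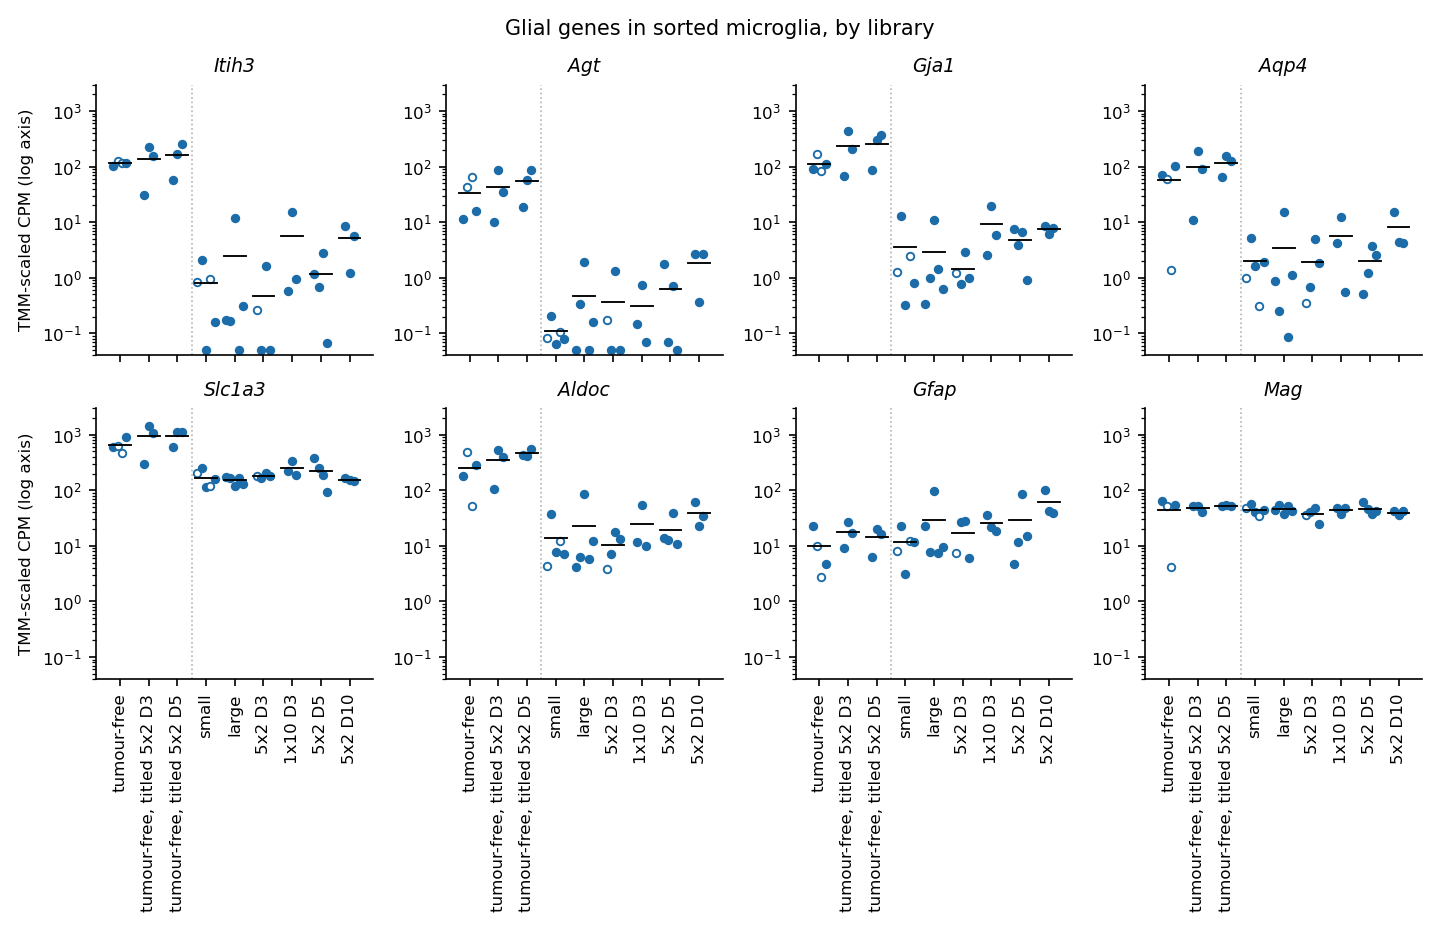
TMM-scaled CPM (log axis) of glial genes in each microglia library, with tumour-free groups to the left of the dotted line. Bars are group means and open symbols libraries of doubtful quality. Itih3 is at 31.3 CPM or more in every tumour-free library and at 15.2 CPM or less in every tumour library, while Mag and Gfap overlap across the line.

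The 250 bases before the start sites of 4 of these genes are shown because Agt and Gja1 fell to near 0, Slc1a3 fell but kept a level above 100 CPM, and Mag, a myelin gene, did not pass the test. Sequences are from RefSeq, GRCm38.p6, read 5' to 3' on the gene's strand, at chr8:124569707-124569956 (minus) for Agt, chr10:56377050-56377299 (plus) for Gja1, chr15:8710808-8711057 (minus) for Slc1a3 and chr7:30914923-30915172 (minus) for Mag. Capitals mark TTGGC, a core recognised by nuclear factor I, TATAAA, the TATA box, and GAGGAA, a core recognised by the myeloid factor PU.1, each on either strand, so that TTCCTC and TTTATA mark the last 2 on the opposite strand.
Agt: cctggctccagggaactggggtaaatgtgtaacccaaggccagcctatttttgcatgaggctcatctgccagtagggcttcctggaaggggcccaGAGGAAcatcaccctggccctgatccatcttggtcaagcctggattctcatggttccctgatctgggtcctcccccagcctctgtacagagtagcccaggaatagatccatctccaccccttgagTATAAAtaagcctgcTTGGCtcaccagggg
Gja1: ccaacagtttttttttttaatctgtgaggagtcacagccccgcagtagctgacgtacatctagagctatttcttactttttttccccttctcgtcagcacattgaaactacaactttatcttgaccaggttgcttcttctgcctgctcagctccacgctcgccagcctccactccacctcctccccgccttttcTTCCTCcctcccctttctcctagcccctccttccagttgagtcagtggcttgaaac
Slc1a3: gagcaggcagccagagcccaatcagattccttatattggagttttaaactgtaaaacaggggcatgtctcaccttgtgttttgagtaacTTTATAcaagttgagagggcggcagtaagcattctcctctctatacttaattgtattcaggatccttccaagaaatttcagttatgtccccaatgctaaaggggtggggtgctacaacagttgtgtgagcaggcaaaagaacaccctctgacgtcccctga
Mag: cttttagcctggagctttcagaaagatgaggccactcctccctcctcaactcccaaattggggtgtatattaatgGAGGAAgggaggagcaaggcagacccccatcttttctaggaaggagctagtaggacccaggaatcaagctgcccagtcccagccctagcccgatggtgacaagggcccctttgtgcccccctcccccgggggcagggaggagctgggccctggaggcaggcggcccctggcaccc
In all, 20 of the 29 genes matched this collection, with 25 windows. TTGGC was in 10 of the 25 and in 41.5% of 32851 windows of all genes, TATAAA in 5 of 25 and 12.4%, and GAGGAA in 8 of 25 and 23.3%. Agt held 1 match of each, Gja1 and Mag 1 of GAGGAA and Slc1a3 1 of TATAAA. A match is a description of the letters in this window only.

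Myelin genes split. Mbp had 203, 191, 185 and 180 CPM in control microglia 1 to 4, and 42.7, 48.6, 42.5, 87.1 and 58.6 CPM in small-stage microglia 1 to 5. The groups did not overlap, and Mbp fell by 1.74 ± 0.28 and 1.60 ± 0.28 on the log2 scale in the small and large stage (adjusted p = 7.46e-05 and 0.000156). Mobp, a protein of compact myelin, fell from 38.6 ± 4.70 CPM (SD, n = 4) to 9.79 ± 7.43 CPM and 8.66 ± 3.52 CPM (SD, n = 5 each). Both kept their calls without the doubtful libraries, Mbp at -1.97 ± 0.35 in the small stage (adjusted p = 0.00124).

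Mag (ENSMUSG00000036634, chr7:30899176-30914873, minus strand), which sits on the myelin face next to the axon, did not follow. It had 64.5, 51.8, 4.11 and 54.3 CPM in control microglia, 47.6, 57.1, 40.7, 34.2 and 44.4 CPM in the small stage, and 44.3, 54.7, 37.9, 51.6 and 43.1 CPM in the large stage. The ranges overlapped, with control microglia 3 lowest of all, and the log2 fold changes were 0.01 ± 0.33 and 0.02 ± 0.33 (adjusted p = 0.989 and 0.963). Without the doubtful libraries they were -0.36 ± 0.24 and -0.39 ± 0.21 (adjusted p = 0.392 and 0.225). The 2 annotated neighbours of Mag are on the same strand and are named here for their position, after their values were seen. Hamp2, a hepcidin gene 7498 bases away, had a mean of at most 0.490 CPM in any group, and Cd22, an inhibitory receptor, lies 18833 bases away on the other side. Cd22 had 10.7 ± 6.28 CPM in control (SD, n = 4), 46.8 ± 17.5 CPM in small-stage and 72.7 ± 22.4 CPM in large-stage microglia (SD, n = 5 each), beside Mag means of 43.7, 44.8 and 46.3 CPM. Cnp had means of 109, 89.3 and 88.4 CPM in the same 3 groups and was not called (adjusted p = 0.358 and 0.181). Cnp shares exon sequence with Dnajc7 on the opposite strand, and the strand of counting is not given in the sources used here, so its reads are uncertain. Grin2b, Meg3, Slc1a2, Aldh1l1, Olig1 and Enpp2 also share exon sequence with a gene on the opposite strand, and the same limit holds for them.

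Enpp2, autotaxin, an enzyme of oligodendrocytes that the choroid plexus makes in quantity, varied most. Control microglia 1 to 4 had 1.23, 886, 393 and 2.33 CPM, and titled 5x2 controls had 180, 5528 and 10060 CPM on day 3 and 1281, 5660 and 10560 CPM on day 5. Ttr, transthyretin, the leading product of the choroid plexus, had 3.08, 2391, 1392 and 2.68 CPM in control microglia, 185, 2823 and 3397 CPM on day 3 and 2831, 3052 and 3770 CPM on day 5. Libraries high in one were high in the other. Among all tumour microglia the highest library of both was large-stage microglia 3, with 167 CPM of Enpp2 and 181 CPM of Ttr. Enpp2 was lower in the small stage (-7.25 ± 1.88, adjusted p = 0.00859) and was not called in the large stage (-3.31 ± 1.55, adjusted p = 0.0970). Without the doubtful libraries its changes were -2.16 ± 2.51 and 4.17 ± 2.20, neither called. Whether Enpp2 here comes from oligodendrocytes or from choroid plexus was not tested.

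Mal, a lipid raft protein of myelin, and Olig1, a transcription factor of oligodendrocytes, were called lower in the large stage. They had 9.18 and 12.7 CPM in control microglia 2 and lost their calls without it (adjusted p = 0.435 and 0.216). Olig1 also lost its call without large-stage microglia 1, 2 or 4 (adjusted p from 0.0588 to 0.0651). Whether these genes differ between the stages was asked directly by comparing large with small. None of the 29 was called there, where 0% of all genes were, with 2 at an unadjusted p under 0.05 (Grin2b lower and Enpp2 higher in the large stage) and 0 by DESeq2. Mog, a myelin surface protein, and Olig2, a lineage transcription factor, were near 0 in most microglia libraries, with medians of 0.126 and 0.291 CPM in tumour-free and of 0 CPM in tumour microglia.

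Neuron genes were low in most microglia libraries, and the highest values of Syt1, Grin2b, Gria2, Rbfox3, Stmn2 and Meg3 came from control microglia 2 or 3. Snap25 was highest in large-stage microglia 3 (20.7 CPM), and Gad1 and Slc17a7, which mark inhibitory and excitatory neurons, did not pass 1.74 and 2.53 CPM in any microglia library. Meg3, a noncoding RNA of neurons, had 1.73, 4.82, 136 and 0.691 CPM in control microglia 1 to 4, and Grin2b, an NMDA receptor subunit, had 0.247, 11.6, 71.3 and 0.302 CPM. Syt1, a calcium sensor of synaptic vesicles, had 0.987, 6.54, 35.0 and 0.302 CPM. Of the 4 controls, library 3 held most of all 3 genes and library 2 came next. Meg3, Stmn2, Syt1 and Rbfox3 lost their large-stage calls without control microglia 3 (adjusted p from 0.0931 to 0.455), and Meg3 its small-stage call (adjusted p = 0.381). Rbfox3 and Syt1 also lost theirs without single large-stage libraries (adjusted p of up to 0.0990 and 0.0536). Gria2, an AMPA receptor subunit, was at 1.23, 66.8, 7.54 and 4.66 CPM in control microglia and at 1.04 CPM or less in both tumour stages. Its small-stage call was lost without control microglia 2 (adjusted p = 0.0529). Gria2 was the only one of the 9 neuron genes called without the doubtful libraries, in the large stage (-3.97 ± 1.13, adjusted p = 0.0175). Snap25, the synaptic SNARE protein, had means of 7.34, 3.28 and 6.34 CPM in control, small-stage and large-stage microglia and was not called.

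The same pair of libraries stood apart in genes of another kind. The 1923 genes named as olfactory and vomeronasal receptors summed to 33.9, 797, 6160 and 36.3 CPM in control microglia 1 to 4. They had reads in libraries of good quality too, with 373 CPM in large-stage granulocytes 2. In blood monocytes 1 to 4 they summed to 1428, 6879, 2355 and 9.94 CPM, and the 9 neuron genes to 37.4, 148, 60.3 and 0.789 CPM. Blood monocytes 4, the single one of good quality, had 0 CPM of 8 of the 9 neuron genes, the exception being Gad1. High astrocyte values were also found with low levels of olfactory genes, since the titled 5x2 controls held 15.3 to 24.7 CPM of them and 648 to 4570 CPM of astrocyte genes. The part of these libraries' quality in the neuron results was not tested beyond leaving them out.

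**Figure D3:**
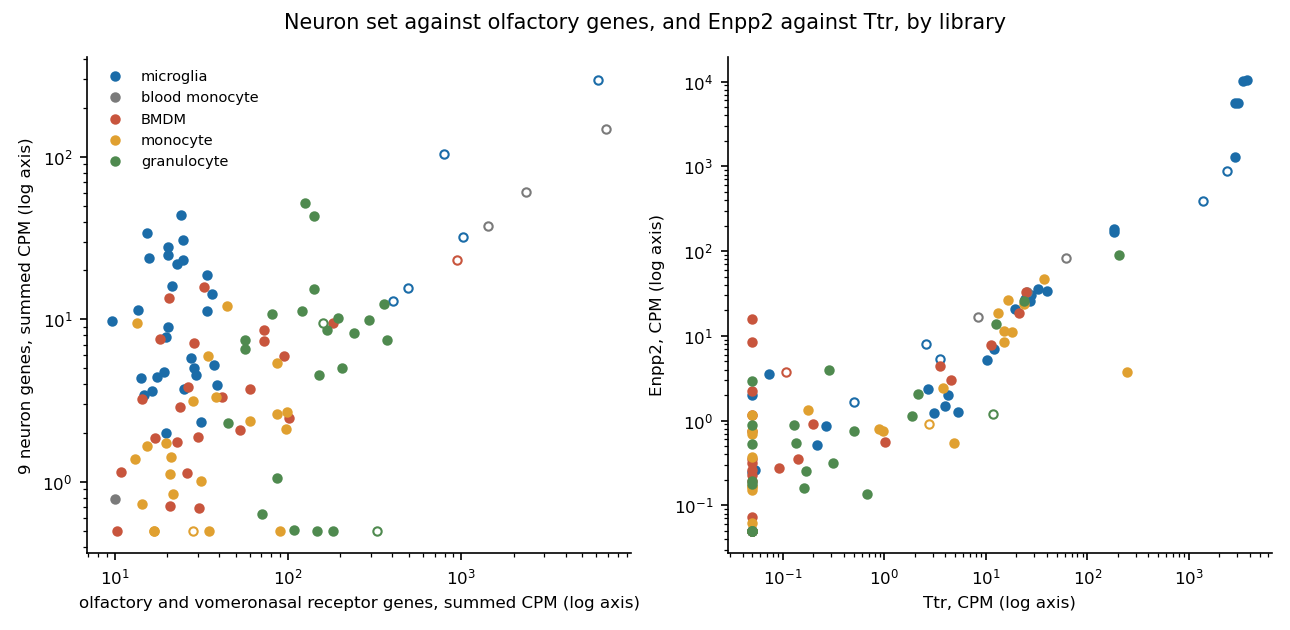
Left, summed TMM-scaled CPM of the 9 neuron genes (y axis) against that of 1923 olfactory and vomeronasal genes (x axis) in 108 libraries. Right, CPM of Enpp2 (y axis) against that of Ttr (x axis), both on log axes with 0 drawn at a floor and open symbols for doubtful libraries. The libraries highest in olfactory genes, blood monocytes 2 and control microglia 3, hold 148 and 299 CPM of neuron genes, and the highest Enpp2 values lie at the highest Ttr values.

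Irradiated tumour microglia of 5x2 Gy on day 3 and day 5 were compared with the titled 5x2 controls of the same day, which are other libraries than the 4 controls above. On day 3, 17 of the 29 genes were lower and 0 higher, where 9.28% of all genes were called, 5.11% lower and 4.18% higher. On day 5 again 17 were lower and 0 higher, where 14.6% of all genes were called, 8.01% lower and 6.61% higher. Of the astrocyte genes 10 of 11 were lower in each, all but Gfap (-0.03 ± 0.85 and 1.06 ± 0.87, adjusted p = 0.991 and 0.470). Itih3 had 31.3, 228 and 156 CPM in the day 3 and 57.5, 170 and 254 CPM in the day 5 controls, and at most 1.61 and 2.79 CPM in the irradiated libraries. It fell by 8.12 ± 1.49 and 7.08 ± 1.39 on the log2 scale (adjusted p = 0.000515 and 0.000837).

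Clu fell from 874 ± 758 CPM (SD, n = 3) to 6.38 ± 3.91 CPM (SD, n = 4) on day 3, and from 1034 ± 645 to 7.82 ± 8.17 CPM on day 5. Titled controls 1 to 3 had 1098, 16650 and 24512 counts of Clu on day 3, and 5550, 12089 and 23165 on day 5. Within each day this is the order of Enpp2 and Ttr in the same libraries. Which cells this Clu came from was not tested. Slc1a3 again fell least of the called astrocyte genes apart from Aldh1l1 on day 3, from 937 to 184 CPM on day 3 (-2.30 ± 0.38) and from 948 to 226 CPM on day 5 (-2.03 ± 0.38). Mbp fell from 364 ± 63.8 to 58.7 ± 16.7 CPM on day 3 (-2.60 ± 0.32, adjusted p = 4.57e-06) and by 2.42 ± 0.32 on day 5 (adjusted p = 9.28e-06). Mag was not called on either day (-0.32 ± 0.37 and -0.13 ± 0.37, adjusted p = 0.647 and 0.873). Cnp was called at -0.69 ± 0.22 and -0.71 ± 0.22 (adjusted p = 0.0453 and 0.0291) and lost each call when any of several single libraries was left out, with adjusted p of up to 0.320 without titled day 3 control 2 and 0.142 without titled day 5 control 3. On day 3, Olig2 lost its call in 6 of the 7 fits that left out 1 library (adjusted p of up to 0.121), and Gria2, Olig1 and Aldh1l1 lost theirs in 5 each (adjusted p of up to 0.0786, 0.108 and 0.136). On day 5, Mog lost its call in 4 of 7 such fits, Mal in 3 and Aldh1l1 in 2, with the highest adjusted p (0.154, 0.199 and 0.127) without titled day 5 control 3. Enpp2 fell by 10.61 ± 2.35 and 9.73 ± 2.27 on the log2 scale, from means of 5255 and 5834 CPM to 3.30 and 6.75 CPM.

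**Figure D4:**
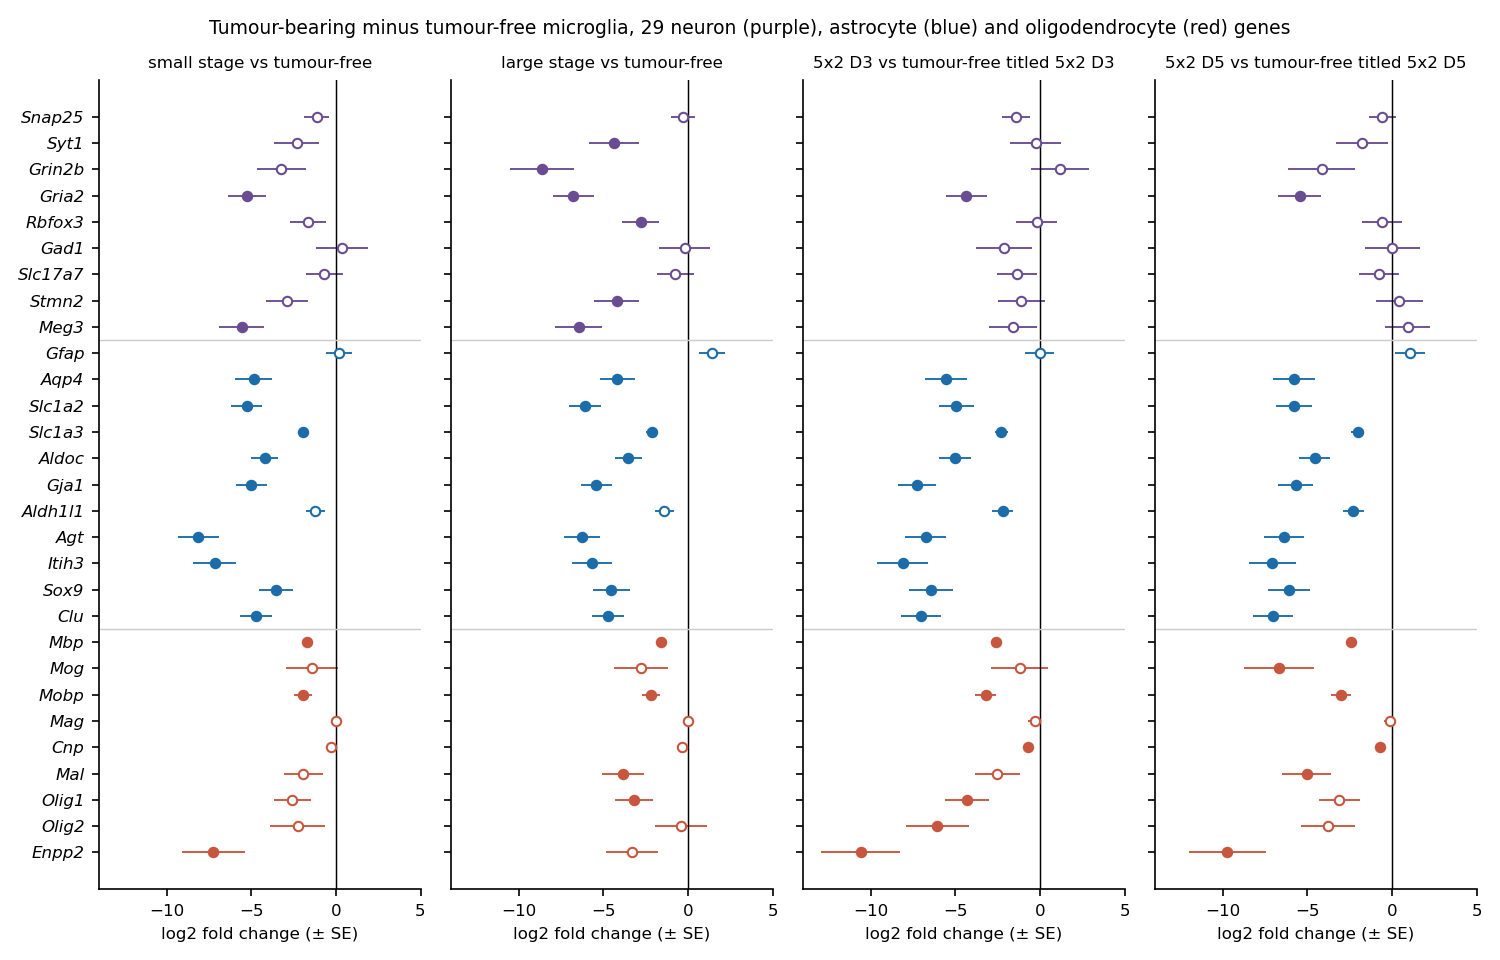
Log2 fold change (x axis, bars are SE) of the 29 genes (y axis) in tumour-bearing against tumour-free microglia, in 4 comparisons. Filled points passed an adjusted p of 0.05. No filled point lies to the right of 0, and Gfap and Mag are open in all 4 comparisons.

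The tumour-free groups were compared with each other, because titles carry 5x2 where the field says none. Neither day differed from control microglia in any of the 29 genes by edgeR, where 1.91% of all genes (0.825% higher, 1.09% lower) and 1.35% (0.795% higher, 0.552% lower) were called. At an unadjusted p under 0.05 there were 6 on day 3 and 7 on day 5, and DESeq2 called 3 and 1. Mbp stood at 364 ± 63.8 CPM on day 3 and 332 ± 44.9 CPM on day 5 (SD, n = 3 each), against 190 ± 9.87 CPM in control microglia (SD, n = 4), with no overlap and adjusted p of 0.0906 and 0.151.

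Other marker genes of the same cells were counted in the same tests. Those tests called 15.4% of all genes in the small stage (7.82% lower, 7.55% higher) and 31.9% in the large stage (20.2% lower, 11.7% higher). On irradiated days 3 and 5 they called 9.28% and 14.6%. These further lists were also chosen with earlier results of these data known, and were not counted without the doubtful libraries. Of 21 further astrocyte genes 20 were lower in the small stage, 18 in the large stage, and 20 on each irradiated day, and 0 were higher. Among them Slc4a4, a bicarbonate transporter, fell from 63.8 ± 16.5 to 1.00 ± 1.20 CPM in the small stage, and Gjb6, connexin 30, from 40.5 ± 19.3 to 0.678 ± 0.881 CPM. Of 20 tested further neuron genes 5 were lower and 2 higher in the small stage and 7 and 2 in the large stage. Of 15 tested further oligodendrocyte genes 6 were lower and 0 higher in the small stage, and 10 lower and 2 higher in the large stage. Markers of oligodendrocyte precursors were a list apart from these 15 genes, and their calls are not counted here. They summed to 140, 285, 258 and 149 CPM in control microglia 1 to 4. In small-stage microglia 1 to 5 the precursor sum was 12.1, 14.3, 3.71, 18.9 and 4.73 CPM. Ptprz1, a phosphatase of oligodendrocyte precursors, fell from 163 ± 36.4 to 3.46 ± 3.43 CPM in the small stage.

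Markers of choroid plexus and ependyma were also called lower, but did not follow the astrocyte genes among control microglia 1 to 4. They summed to 5.92, 2514, 1526 and 3.80 CPM in control microglia 1 to 4, of which 2 and 3 are of doubtful quality. The astrocyte sum was 1276, 2336, 1457 and 1720 CPM there. In the titled 5x2 controls the 2 sums went more closely together. Choroid and ependyma markers summed to 199, 3652 and 5366 CPM on day 3 and 3035, 3894 and 5784 CPM on day 5. The astrocyte sum was 648, 4207 and 3715 CPM on day 3 and 1921, 3309 and 4570 CPM on day 5. Among these titled controls, both sums were lowest in day 3 library 1 and highest in day 5 library 3. All genes were called at 15.4% and 31.9% in the small and large stage, and at 9.28% and 14.6% on irradiated days 3 and 5. Of 9 markers tested, 3 and 6 were lower in the small and large stage and 7 on each irradiated day, and 0 were higher. Their sum ran from 3.80 to 5784 CPM in tumour-free and from 0.391 to 196 CPM in tumour microglia, and control microglia 1 and 4, with high Itih3, had the lowest Ttr of the tumour-free libraries. Of 9 microglia genes 1 was lower in the small stage, and 3 were lower and 1 higher in the large stage. The shares of all genes called were 15.4% and 31.9% in these stages. Of 16 engulfment genes, which encode receptors and bridging proteins for dead cells and myelin, 7 were higher and 2 lower in the small stage and 10 and 4 in the large stage. Axl, a receptor for dying cells, was at 759 ± 134 CPM in small-stage (SD, n = 5) against 56.8 ± 27.0 CPM in control microglia (SD, n = 4), and its bridging ligand Gas6 at 435 ± 161 against 104 ± 37.0 CPM. The astrocyte sum was low in the small-stage group, where the means of Axl and Gas6 were high. The sum of all engulfment genes ran from 12100 to 15250 CPM in that group. Of the tumour-free libraries, titled day 5 control 1 alone reached this range, at 13680 CPM, beside 1921 CPM of astrocyte genes. Whether engulfment genes and glial transcripts are related was not tested.

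Each radiotherapy group was then compared with both unirradiated stages of its population, given equal weight. None of the 29 genes was called in microglia after 5x2 Gy on day 3, 1x10 Gy on day 3, 5x2 Gy on day 5 or 5x2 Gy on day 10, where 0.0607%, 0.101%, 0.0354% and 0.00506% of all genes were. At an unadjusted p under 0.05 there were 0, 1, 0 and 3 of the 29, and 0 by DESeq2 in each. Of the 20 tested in BMDM none was called in the same 4 comparisons, where 0%, 0.00630%, 0% and 0% of all genes were, with 3, 4, 3 and 1 at an unadjusted p under 0.05 and 0 by DESeq2.

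Gfap had its highest group mean on day 10 after 5x2 Gy in each of the 4 tumour populations. Microglia had 103, 42.3 and 38.7 CPM in day 10 libraries 1 to 3, BMDM 43.4, 24.2 and 56.8 CPM, monocytes 60.3, 56.8 and 28.9 CPM, and granulocytes 302, 128 and 57.1 CPM. The medians over all libraries of these populations were 16.7, 21.0, 14 and 26.6 CPM. In microglia the change was 1.74 ± 0.67 with an unadjusted p of 0.0140 and an adjusted p of 0.909, and in BMDM 1.23 ± 0.51 with 0.0256 and 0.776, so neither was called, and day 10 of monocytes and granulocytes was not tested. Agt and Olig1 were the 2 other microglia genes with an unadjusted p under 0.05 on day 10, at 1.88 ± 1.31 and 4.01 ± 2.69 CPM (SD, n = 3) against 0.293 ± 0.572 and 0.670 ± 0.617 CPM (SD, n = 10).

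Populations of unirradiated tumours were compared next. BMDM and microglia share the phagocyte's role but not the place of origin. Of 21 tested genes 3 were lower in BMDM (Slc1a3, Aldh1l1 and Mag) and 2 higher (Mbp and Cnp), where 29.9% of all genes were called, 16.1% higher and 13.8% lower. Slc1a3 ran from 0.782 to 75.5 CPM in BMDM and from 115 to 250 CPM in microglia, without overlap (-2.77 ± 0.49, adjusted p = 0.000199). Mag ran from 7.03 to 32.9 CPM in BMDM and from 34.2 to 57.1 CPM in microglia, again without overlap (-1.54 ± 0.24, adjusted p = 6.24e-05). Both kept their calls without the doubtful libraries (-2.66 ± 0.54 and -1.46 ± 0.25). Gja1, Itih3 and Clu were not called, at means of 4.78, 0.665 and 21.7 CPM in BMDM and 3.23, 1.63 and 9.11 CPM in microglia. Mbp was at 113 ± 35.9 CPM in BMDM and 60.0 ± 20.5 CPM in microglia (SD, n = 10 each), with overlap (0.86 ± 0.18, adjusted p = 0.000974). Cnp was called at 0.50 ± 0.17 (adjusted p = 0.0285) and lost its call without BMDM 2 of the small stage and without 5 other single libraries.

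Within BMDM, 6 of the 20 tested genes had an unadjusted p under 0.05 between large and small stage, and 0 were called by edgeR or DESeq2, where 0% of all genes were. Clu was at 8.41 ± 4.58 CPM in the large against 35.0 ± 27.5 CPM in the small stage (SD, n = 5 each, -2.01 ± 0.54, adjusted p = 0.734). None of 16 tested was called in monocytes, where 0% of all genes were (2 at an unadjusted p under 0.05, 0 by DESeq2), and none of 25 in granulocytes, where 0.0141% were (3 and 1).

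Among the tumour populations, granulocytes held the most Mbp. In small-stage granulocytes 1 to 4 it had 538, 263, 282 and 368 CPM and in large-stage granulocytes 1 to 5 it had 317, 237, 249, 443 and 575 CPM. Monocytes of both stages ran from 61.2 to 165 CPM. On the TMM scale the 2 populations did not overlap (2.0 ± 0.30, adjusted p = 1.1e-05). As plain shares of the library total they did. Mbp had 1380 of 9335962 counts in large-stage granulocytes 3 (TMM factor 0.593). In large-stage monocytes 5 (factor 1.058) it had a larger share, 2200 of 12622535. Cnp went the other way, from 0.918 to 40.5 CPM in granulocytes and from 50.3 to 129 CPM in monocytes (-2.82 ± 0.52, adjusted p = 0.000128). Mobp and Mag did not share this pattern. Mobp had means of 8.36 and 5.46 CPM and Mag of 4.29 and 5.48 CPM in granulocytes and monocytes, and neither was called. Of the 14 tested genes 4 were higher and 2 lower in granulocytes, where 49.9% of all genes were called, 23.0% higher and 26.9% lower, so calls were common in this comparison.

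The 4 other calls between granulocytes and monocytes rested on few libraries. Aldoc and Gfap lost theirs without small-stage granulocytes 1 (adjusted p = 0.278 and 0.103), a library with 620 and 97.8 CPM of them, 0 CPM of the 9 neuron genes and 5.91% of the abundant granulocyte genes at 0. Gfap also lost its call without large-stage granulocytes 4 (adjusted p = 0.0615). Enpp2 lost its call without small-stage granulocytes 2 or large-stage granulocytes 4 (adjusted p = 0.986 and 0.541), and narrowly without small-stage monocytes 1, 2 or 3 (adjusted p from 0.0579 to 0.0645). Gja1, lower in granulocytes, had medians over all libraries of 1.02 CPM there and 9.59 CPM in monocytes, and its call (-2.29 ± 0.94, adjusted p = 0.0465) was lost when any 1 of 13 libraries was left out.

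**Figure D5:**
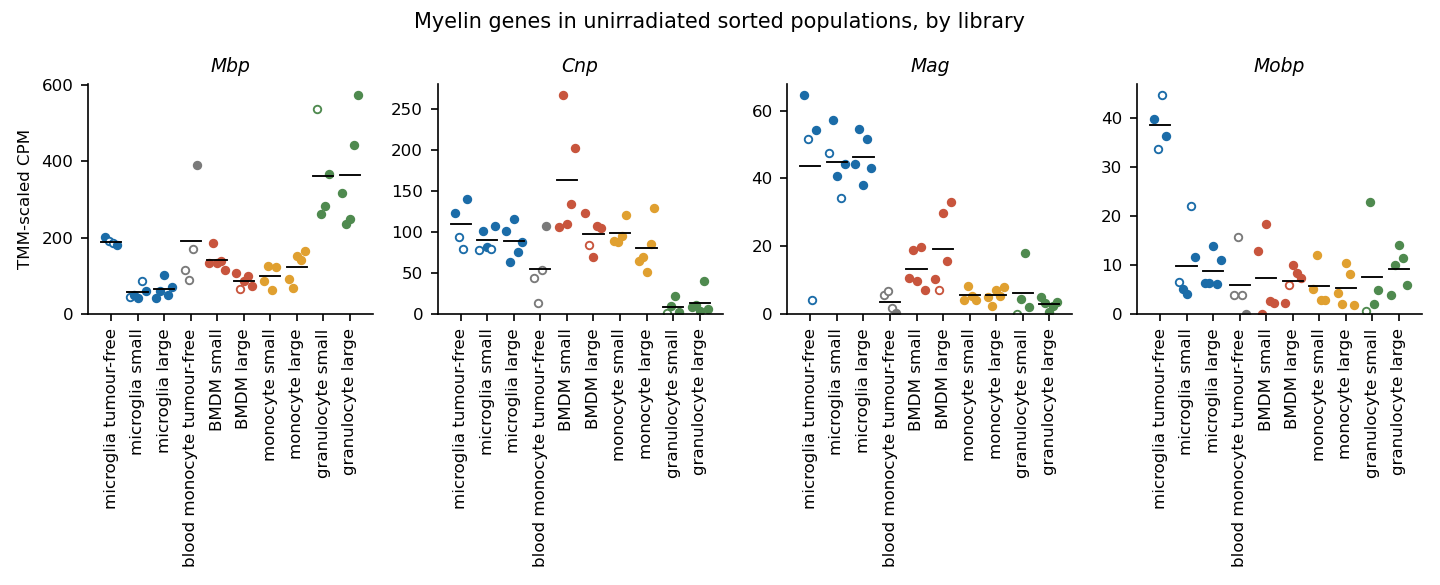
TMM-scaled CPM (linear axis from 0) of Mbp, Cnp, Mag and Mobp in control microglia, blood monocytes and the unirradiated tumour groups (x axis). Points are libraries, bars group means and open symbols doubtful libraries. Mbp is highest in granulocytes (237 to 575 CPM), Mag in microglia (34.2 to 57.1 CPM of the tumours), and Cnp is lowest in granulocytes (0.918 to 40.5 CPM).

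Blood monocytes were taken from blood, and their values give a background for the monocytes and BMDM taken from brain. The 11 astrocyte genes summed to 68.5, 118, 59.8 and 17.8 CPM in blood monocytes 1 to 4, against a median of 64.8 CPM in tumour monocytes. Blood monocytes 1 to 3 are of doubtful quality and high in olfactory genes. Library 4 lay below every tumour monocyte library, the lowest of which, large-stage monocytes 3, had 34.0 CPM. Mbp was at 114, 88.0, 170 and 390 CPM in blood monocytes, with the highest value in library 4, and at 112 ± 37.8 CPM in unirradiated tumour monocytes (SD, n = 9). Of 18 tested genes 1 was higher and 3 lower in tumour monocytes, where 26.3% of all genes were called (10.6% higher, 15.7% lower), and of 22 tested 4 were higher and 6 lower in BMDM, where 32.8% were (9.59% higher, 23.2% lower). Aldoc was the gene higher in both, at 27.0 ± 20.9 CPM in tumour monocytes and 27.4 ± 14 CPM in BMDM against 4.52 ± 0.966 CPM in blood monocytes (2.14 ± 0.47 and 2.41 ± 0.43, adjusted p = 0.00545 and 0.00205).

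Gfap was also higher in BMDM, at 6.82 to 47.9 CPM against 0.505, 4.65, 0.995 and 0 CPM in blood monocytes 1 to 4 (3.25 ± 0.94, adjusted p = 0.0217), and had 5.17 to 40.7 CPM in tumour monocytes without a call (2.70 ± 1.01, adjusted p = 0.0599). No library of either overlapped with blood, and the BMDM call was lost without blood monocytes 3 (adjusted p = 0.0568). Mbp, called lower in both, lost its calls without blood monocytes 4 (-0.43, adjusted p = 0.210, in monocytes and -0.20, adjusted p = 0.504, in BMDM). The genes called lower were mostly those that stood high in blood monocytes 1 to 3 with olfactory genes. Syt1, for one, had 11.1, 43.7, 14.4 and 0 CPM in blood monocytes 1 to 4, and its call in BMDM ended without blood monocytes 2 alone (adjusted p = 0.126). Without the 3 doubtful ones 1 blood library remains, assumed to vary like the rest, and 0 genes were called in monocytes and 3 in BMDM (Gfap and Mag higher, Mbp lower).

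Against blood monocytes, control microglia were higher in 6 of 26 tested genes and lower in 0, where 5.19% of all genes were called, 2.89% higher and 2.31% lower. These were Aqp4, Slc1a3, Aldoc, Gja1, Itih3 and Clu, with log2 fold changes from 3.84 ± 0.72 for Clu to 5.86 ± 0.76 for Aldoc. Aqp4, Gja1, Itih3 and Slc1a3 lost their calls without blood monocytes 1 (adjusted p = 0.135, 0.135, 0.110 and 0.113) or 3, and each of them without control microglia 2. Mbp did not differ beyond its spread (190 ± 9.87 and 191 ± 138 CPM, SD, n = 4 each, 0.05 ± 0.48, adjusted p = 0.979).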

How the data were processed

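Counts per gene for 108 libraries of total RNA from flow-sorted mouse cells were used as deposited in 1 table of 49585 genes. Tools listed in the submitters' processing notes, with no role, are TopHat2 2.0.14, HTSeq, FastQC and DESeq2 1.18.1, with the build GRCm38. The gene annotation and the strand setting are not given in the sources. Groups were taken from the sample labels. The members and lists were chosen with earlier results of these data known. Total counts had a median of 11362593 per library, and the shallowest libraries set the precision of genes near 0.

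Levels are CPM, counts scaled to library size, with TMM factors over all libraries (edgeR 4.0.16, R 4.3.3). Tests were edgeR's quasi-likelihood test after its filter on low counts (minimum 10, total 15) and Benjamini-Hochberg adjustment over all genes tested, with a threshold of 0.05. Microglia, BMDM, monocytes and granulocytes were each fitted over all their groups, and comparisons between populations over only the groups compared. Errors of fold changes are SE. The fit was tested on simulated data. A library was called of doubtful quality where its total was under 3000000 counts, over 30000 genes were detected, or over 1% of the genes with a median of at least 50 CPM in its population were at 0. The 29 genes were all eligible to be named, with up to 4 further genes of each other list per comparison by smallest adjusted p, and P2ry12, Ccr2, Ly6g and S100a8 as checks. Alternatives were RLE scaling, no filter, DESeq2 1.42.0, the compared groups alone, a replicate block, leaving out each library, and leaving out the doubtful libraries. Gene positions are from GENCODE M21 (49326 identifiers matched). Figures used matplotlib 3.10.9. Results for some genes of the other lists are not reported here.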

Additional observations from a re-analysis of the deposited data

Results flagged for a closer look

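The 3 summed sets were examined for a library standing apart from its group in groups of 4 or 5 libraries, 54 sums in all, and 12 did so. The cutoff is set for 1 in 20 where values spread normally, which was not checked for these sums. The 3 sums of a library are also not independent, so the count cannot be weighed against chance. Large-stage microglia 3 stood apart in all 3 sets, at 30.62 CPM of neuron genes (next 5.016), 405.8 CPM of astrocyte genes (next 217.6) and 437.1 CPM of oligodendrocyte genes (next 213.6). Large-stage granulocytes 4 held 51.71 CPM of neuron genes (next 11.21) and 629.4 CPM of astrocyte genes (next 95.23). Large-stage monocytes 4 held 9.48 CPM of neuron genes (next 2.692) and 200 CPM of astrocyte genes (next 70.7). Small-stage BMDM 2 held 215.6 CPM of astrocyte genes (next 101.5) and 483.5 CPM of oligodendrocyte genes (next 326.2). Small-stage granulocytes 1, a library of doubtful quality, held 717.8 CPM of astrocyte genes (next 108.5), of which Aldoc made up 620 CPM. In microglia and BMDM of 5x2 Gy on day 3, library 3 held 289.6 CPM (next 217.6) and 125.8 CPM (next 77.07) of astrocyte genes. The labels do not tie a number in one population to the same number in another, and no cause was tested.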

How the results depend on the processing

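Depth limits the genes near 0, where 1 library can hold all reads of a gene, and the comparisons with blood monocytes rest on 3 doubtful libraries of 4. Leaving out the 12 doubtful libraries moved the counts of called genes to 8 in small against control microglia, 12 in large against control, 1 in titled day 5 controls against control (Enpp2), 0 in tumour monocytes and 3 in BMDM against blood, and 16 in control microglia against blood, where 1 blood library remains. In that fit Rbfox3 turned to 0.82 in large against control microglia, Enpp2 to 6.73 and Stmn2 to 4.28 in monocytes against blood, and Syt1 to 6.0, Grin2b to 5.51, Stmn2 to 3.93 and Meg3 to 3.73 in BMDM against blood. With the compared groups alone the counts were 9 (small) and 12 (large against control). DESeq2 called 3 and 1 in the titled day 3 and day 5 controls against control, 1 in granulocytes by stage and 3 in granulocytes against monocytes. RLE scaling gave 1 in granulocytes by stage and 2 in control microglia against blood. With no filter there were 19 in monocytes against blood, 10 in granulocytes against monocytes and 11 in control microglia against blood. The causes were not tested. Leaving out 1 library at a time gave 0 to 2 and 0 to 1 in the titled day 3 and day 5 controls, 3 to 14 in monocytes and in BMDM against blood, 2 to 8 in control microglia against blood, 13 to 16 in small and 15 to 21 in large against control, 12 to 17 and 13 to 18 on irradiated days 3 and 5, 4 to 7 in BMDM against microglia and 5 to 8 in granulocytes against monocytes. With the replicate number as a block, BMDM against blood gave 4, granulocytes against monocytes 3, small against control 13 and large against control 14. In no comparison did every same-numbered pair deviate together above a correlation of 0.1, so the numbers were not taken as pairing the libraries. In granulocytes against monocytes 6 of 9 pairs did, and in BMDM against microglia 5 of 10. On irradiated day 5 against its titled controls the 3 correlations ran from 0.079 to 0.308, each the best with its own number, a hint from the data and not the design, and the block gave 17 there, as without it. Of single gene calls, 92 of 98 kept theirs under RLE scaling, 93 of 94 under DESeq2, 78 of 98 with the block and 70 of 97 without the doubtful libraries. In each single-library fit of the 4 comparisons of tumour with tumour-free microglia, Itih3, Agt, Gja1, Slc1a2, Slc1a3, Aldoc, Clu, Mbp and Mobp kept their calls.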

Other observations

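Gfap was highest in library 4 of the large stage in BMDM (47.9 CPM, the others 6.82 to 11.2 CPM), in monocytes (40.7 CPM, the others 5.17 to 9.28 CPM) and in granulocytes (190 CPM, the others 15.0 to 33.8 CPM), while large-stage microglia 4 had 7.40 CPM, the lowest of its group. Small-stage monocytes 4 held 15.0 CPM of Itih3, 7.35 CPM of Agt and 244 CPM of Ttr, the highest values of each among tumour monocytes. These values were seen in the data and no explanation was tested.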
